A study of Mus musculus with 4 samples.

Results

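The 10 genes described here are NRF2 (Nfe2l2), the transcription factor that induces antioxidant defence, and 9 genes known as its targets, several of which supply or use glutathione. They were taken by gene symbol, through a GENCODE annotation of mouse build GRCm38, from 55421 gene identifiers counted in each of 4 RNA-seq libraries, and all 10 were found under 1 identifier each. The material came from wild-type (WT) C57BL/6 mice fed either normal chow (NCD, 2 libraries) or a high-fat diet (HFD, 2 libraries). The labels give neither age, sex and time on diet nor how many animals stand behind a library, and a p-value here therefore reflects only how far these libraries spread, a spread that could be technical. The material is named as islet macrophages, from islets that were frozen before RNA extraction.

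NRF2 is held in the cytoplasm by KEAP1 and degraded. When electrophiles or oxidants modify KEAP1, NRF2 accumulates, pairs with small MAF proteins and binds antioxidant response elements beside its targets. These encode the cystine importer and the enzymes that make and reduce glutathione, the reductases and peroxidases of the thioredoxin branch, and enzymes that detoxify quinones and heme. In the pancreatic islet the pathway is known for protecting beta cells, which are poor in catalase and glutathione peroxidase, and in macrophages for restraining inflammatory gene expression.

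RefSeq promoter windows of GRCm38.p6, from 250 bases before to 50 bases after a start site, matched 7 of the 10 genes. No window was matched for Gclc, Hmox1 and Gsr. The core of the antioxidant response element was searched as TGACNNNGC on both strands. It was found in a window of 5 of the 7 genes (Nfe2l2, Gclm, Prdx1, Txnrd1 and Srxn1), where 14.0% of 27025 mouse genes hold it in a window. The stricter form TGACTCAGC was found in Prdx1 alone of the 7, and in 0.503% of all genes. The stretches below are shown because they carry the upstream matches, in capitals, within sequence read 5′ to 3′ on the strand of the gene.
Nfe2l2 (chr2:75704865-75704913, minus strand): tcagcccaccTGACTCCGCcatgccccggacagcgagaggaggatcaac
Gclm (chr3:122245393-122245461, plus strand): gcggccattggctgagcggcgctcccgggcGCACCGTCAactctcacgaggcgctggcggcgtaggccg
Prdx1 (chr4:116685436-116685504, plus strand): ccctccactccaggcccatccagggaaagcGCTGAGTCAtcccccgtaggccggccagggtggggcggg
Txnrd1 (chr10:82859084-82859152, plus strand): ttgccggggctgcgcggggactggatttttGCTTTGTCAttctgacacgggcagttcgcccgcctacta

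The match of Nfe2l2 lies in an exon of E030042O20Rik, a transcript on the opposite strand, and that of Txnrd1 lies within the Txnrd1 gene, before 1 of its 3 RefSeq start sites and outside every annotated exon. The match of Srxn1 starts 29 bases after its start site and is not shown. Srxn1 also has a pair of upstream AP-1 motifs, searched as TGANTCA, which 8.97% of genes hold and which can overlap the antioxidant response element, as it does in Prdx1. With the bases after it, the Srxn1 motif nearer the start site reads TGAGTCAGC, a single letter from the stricter form TGACTCAGC. The core search fixes C after TGA and so passes over that site. The window of Slc7a11 has no antioxidant response element core but a pair of amino acid response element cores, the element bound by the stress factor ATF4, searched as TGATGNAA on both strands and held by 4.51% of genes. Nqo1 has none of these letters in its window. A match of letters is a description and shows no binding.
Srxn1 (chr2:152105392-152105515, plus strand, AP-1 in capitals): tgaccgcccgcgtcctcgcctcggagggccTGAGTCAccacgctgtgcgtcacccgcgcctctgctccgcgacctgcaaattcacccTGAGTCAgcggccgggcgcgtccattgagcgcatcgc
Slc7a11 (chr3:50443623-50443709, minus strand, amino acid response element cores in capitals): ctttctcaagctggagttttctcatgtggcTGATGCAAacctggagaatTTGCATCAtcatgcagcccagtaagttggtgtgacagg

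Values below are counts scaled to library size (CPM) after TMM normalization, with the mean ± SD over n = 2 libraries per diet. The libraries held 56740720 to 64490097 counts, and the 10 genes had between 5278 and 65857 counts in a library, so all passed the filter on low counts. The most abundant messages of the libraries were endocrine, with insulin gene Ins2 at 9831 ± 84.6 CPM in NCD against 30.7 ± 1.70 CPM for Adgre1, the macrophage marker F4/80. In such a bulk sample a change in the number of cells of a type and a change in RNA per cell cannot be told apart.

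Of the 10 genes, 8 rose in HFD by edgeR's quasi-likelihood test at a Benjamini-Hochberg adjusted p under 0.05 and none fell, where 17.9% of the 21563 genes tested were called higher and 14.5% lower. Many of the genes tested had far lower counts than these 10. Of the 12728 genes averaging 5 CPM or more, 2675 were called higher and 2937 lower. Slc7a11, the cystine importer, rose most, 4.83-fold, followed by Prdx1 at 2.29-fold and Nqo1 at 2.05-fold. Nfe2l2 itself rose 1.65-fold. Hmox1 and Gclm did not pass. No gene of the 10 was lower at an unadjusted p under 0.05, with DESeq2 or with limma-voom either. In 9 of the 10 genes both HFD libraries lay above both NCD libraries, a pattern seen in 34.5% of the genes tested. The median log2 change of the 10 genes was 0.54, against 0.00 over all genes tested and -0.06 over those averaging 5 CPM or more. The 10 genes were chosen with earlier results of these data known. Their counts and median beside those of all genes are therefore a description and no test of the list.

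**Figure D1:**
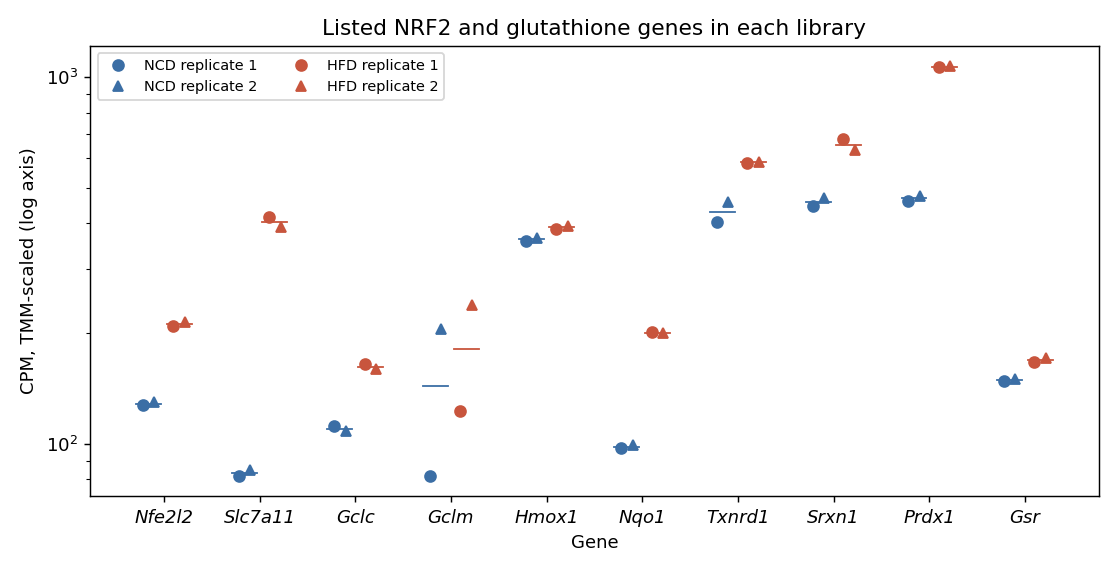
CPM of the 10 genes (log axis) in each of the 4 libraries, with NCD in blue, HFD in red, circles for replicate 1, triangles for replicate 2 and a bar at the mean of each diet. Slc7a11 lies at 82.0 and 84.9 CPM in NCD and at 415 and 390 CPM in HFD, and Gclm is the gene whose libraries differ most within a diet.

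**Figure D2:**
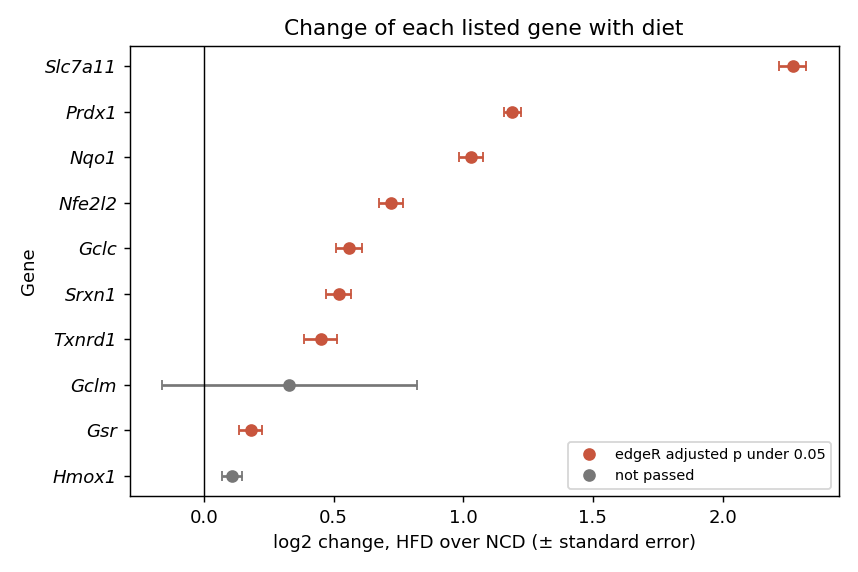
Log2 change of each gene in HFD over NCD with its standard error from the quasi-likelihood fit, in red where the edgeR adjusted p is under 0.05 and grey where it is not. The changes run from 0.11 for Hmox1 to 2.27 for Slc7a11, and the error of Gclm, 0.492, is far wider than that of the other genes.

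Nfe2l2, at chr2:75675513-75704641 on the minus strand, stood at 127 and 130 CPM in the NCD libraries and at 209 and 215 CPM in the HFD libraries. The diets did not overlap, and the gap between them was many times the spread within either. The log2 change was 0.72 ± 0.0465 (SE, edgeR adjusted p = 3.69e-04). NRF2 protein is controlled mainly by its degradation, which these counts do not measure.

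Slc7a11, at chr3:49892526-50443614 on the minus strand, encodes xCT, the light chain of the transporter that takes up cystine in exchange for glutamate and so feeds glutathione synthesis. It stood at 82.0 and 84.9 CPM in NCD and at 415 and 390 CPM in HFD. Both HFD libraries were far above both NCD libraries, and the log2 change was 2.27 ± 0.0531 (SE, edgeR adjusted p = 3.86e-05). Among genes averaging 5 CPM or more, 2.4% had a larger log2 change. The heavy chain that carries xCT to the cell surface, Slc3a2, went the other way, from 849 and 856 CPM to 669 and 739 CPM (log2 change -0.28, edgeR adjusted p = 0.0137). In the longest transcript of Slc3a2, 189 of 2813 bases lie in stretches with near-identical copies (at least 95% over 100 bases) in 307 other genes, and the part of these in its count was not tested.

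A stretch of 373 bases in the longest annotated Slc7a11 transcript is 95.4% to 96.2% identical to the alpha-tubulin genes Tuba1a, Tuba1b and Tuba1c, and how reads matching several genes were treated is not stated in the sources used here. These tubulin genes, looked up after that match was seen, also rose, Tuba1a from 101 ± 4.17 to 186.0 ± 20.8 CPM, Tuba1b from 131 ± 0.380 to 203 ± 0.517 CPM and Tuba1c from 58.8 ± 1.75 to 117 ± 2.10 CPM. Their log2 changes of 0.63 to 0.99 were smaller than that of Slc7a11. The part of these tubulin genes in the Slc7a11 count was not tested. In all, 374 of the 9223 bases of that transcript have near-identical copies in 9 other genes. Of these, 5 are pseudogenes that held 5.64% as many counts as Slc7a11, and their part was not tested either. The 3 protein-coding genes closest to Slc7a11 in centred log2 CPM over the 4 libraries, of 11967 compared, were Spn, C1qtnf1 and H2-Q7, with root mean square distances of 0.0151, 0.0205 and 0.0366. Over 4 libraries in 2 diets this distance holds little beyond a similar fold change, and H2-Q7 has close paralogs that can share its reads.

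Gclc and Gclm encode the catalytic and the modifier subunit of glutamate-cysteine ligase, the rate-limiting enzyme of glutathione synthesis. Gclc, at chr9:77754535-77794485, stood at 112 and 108 CPM in NCD and at 165 and 159.8 CPM in HFD, without overlap (log2 change 0.56 ± 0.04997 SE, edgeR adjusted p = 9.93e-04). Gclm, at chr3:122245557-122270732, stood at 81.8 and 206 CPM in NCD and at 123 and 239 CPM in HFD. Its diets overlapped, because the library of replicate 2 was 2.51-fold above that of replicate 1 in NCD and 1.95-fold above it in HFD. The log2 change of 0.33 ± 0.492 (SE) did not pass (edgeR adjusted p = 0.665). Left out one at a time, the libraries gave log2 changes from -0.23 without HFD replicate 2 and -0.19 without NCD replicate 1 to 0.74 without HFD replicate 1 and 1.14 without NCD replicate 2, none of which passed.

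Such a gap was rare. Of 12728 genes averaging 5 CPM or more, 32, Gclm among them, were at least as far apart in both diets, in any direction. In 7 of these, Gclm included, replicate 2 was the higher in both diets, a direction taken from Gclm itself. The other 9 listed genes differed at most 1.13-fold within a diet. The exons of Gclm overlap those of the pseudogene Gm6061 on its own strand by 244 bases and those of the non-coding transcript Gm17494 on the opposite strand by 296 bases. Gm6061 had 0 to 23 counts and Gm17494 554 to 724 counts in a library, against 5279 to 13547 counts of Gclm. The NCD libraries held 610 and 724 counts of Gm17494 and the HFD libraries 554 and 608, a much smaller gap between libraries than that of Gclm.

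**Figure D3:**
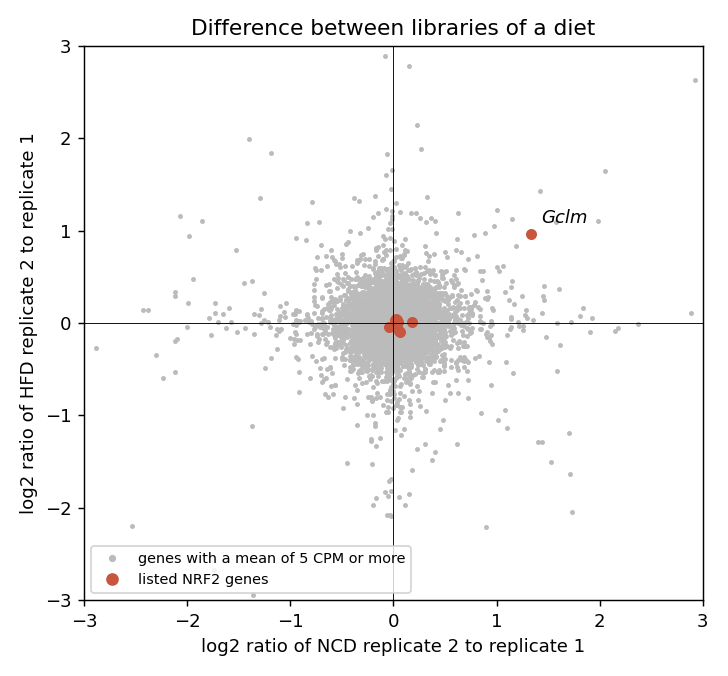
Log2 ratio of replicate 2 to replicate 1 in NCD (x axis) and in HFD (y axis) for genes averaging 5 CPM or more (grey) and for the 10 listed genes (red), leaving out 41 genes beyond the axis limits of 3. Gclm lies at 1.33 and 0.96, while the other listed genes lie close to 0 on both axes.

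Gsr, at chr8:33652523-33698163, encodes glutathione reductase, which regenerates glutathione with NADPH. It stood at 148 and 150.2 CPM in NCD and at 168 and 172 CPM in HFD. The diets did not overlap, but the rise was small (log2 change 0.18 ± 0.0460 SE, edgeR adjusted p = 0.0309). The call was lost without any 1 of the 4 libraries (edgeR adjusted p = 0.118 and 0.0939 without NCD replicate 1 and 2, and 0.0769 and 0.138 without HFD replicate 1 and 2) and without the count filter (0.0503).

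The thioredoxin branch reduces protein thiols and peroxides alongside glutathione. Prdx1, a peroxiredoxin that destroys hydrogen peroxide, at chr4:116685544-116700822, stood at 460 and 473 CPM in NCD and at 1063 and 1070 CPM in HFD. Its HFD libraries stood more than 2-fold above its NCD libraries and differed little from each other (log2 change 1.19 ± 0.0345 SE, edgeR adjusted p = 5.11e-05). A pair of pseudogenes holds near-identical stretches of Prdx1, with 1.08% as many counts as Prdx1 itself. Srxn1 encodes sulfiredoxin, which restores overoxidised peroxiredoxins, and lies at chr2:152105516-152111376. It rose from 447 and 467 CPM to 677 and 633 CPM (log2 change 0.52 ± 0.0485 SE, edgeR adjusted p = 0.00115). Txnrd1, the cytosolic thioredoxin reductase, at chr10:82833951-82897712, rose from 403 and 455 CPM to 584 and 587 CPM (log2 change 0.45 ± 0.0638 SE, edgeR adjusted p = 0.00488). Both diets stayed apart in these 3 genes, with the widest spread in the NCD libraries of Txnrd1.

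Nqo1 encodes a quinone reductase and is widely used as a readout of NRF2 activity. It lies at chr8:107388225-107403206 and stood at 97.2 and 99.5 CPM in NCD and at 202 and 200.2 CPM in HFD (log2 change 1.03 ± 0.0470 SE, edgeR adjusted p = 1.38e-04). The libraries of a diet differed by less than 3 CPM. Hmox1 encodes heme oxygenase, which breaks down heme and is induced by NRF2 once the repressor BACH1 leaves its enhancers. It lies at chr8:75093621-75100589 and stood at 357 and 365 CPM in NCD and at 385 and 393 CPM in HFD. Its diets did not overlap, yet the log2 change of 0.11 ± 0.0385 (SE) did not pass (edgeR adjusted p = 0.0849), although DESeq2 called it higher (DESeq2 adjusted p = 0.00243), as did edgeR when only genes averaging 5 CPM or more were tested (edgeR adjusted p = 0.0178).

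Levels of different genes were compared as CPM per kilobase of annotated exon. In NCD Hmox1 was highest, at 204 and 208 CPM per kilobase, followed by Srxn1 at 158 and 166 and Prdx1 at 151 and 156, ranges that lay close together without overlap. Nqo1 at 62.6 and 64.1 overlapped Txnrd1 at 56.8 and 64.2, and Gsr followed at 53.8 and 54.5. The annotated exons of Txnrd1 span 7.09 kilobases over every transcript form, against 3622 bases in its longest transcript. For Nqo1 both lengths are 1553 bases. The place of Txnrd1 in the order of either diet therefore depends on the length used. Nfe2l2 stood at 33.6 and 34.2 CPM per kilobase and Gclc at 28.8 and 29.6, with Gclm, at 13.01 and 32.7, spanning Gclc. Slc7a11 was lowest, at 5.89 and 6.10.

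In HFD the order per kilobase was led by Prdx1, at 349 and 352. Srxn1 at 225 and 240 and Hmox1 at 220.1 and 224 came next, with ranges that nearly met. Nqo1 followed at 129 and 130.1, then Txnrd1 at 82.4 and 82.8, Gsr at 60.9 and 62.3, Nfe2l2 at 55.1 and 56.6 and Gclc at 42.4 and 43.8. Slc7a11, at 28.0 and 29.8, lay inside the range of Gclm, 19.5 to 38.0. Its annotated exons span 13.9 kilobases, counting every transcript form, so its level per kilobase would be higher for a shorter form.

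Around these genes, 9 lists of 115 other genes covered the regulators of NRF2, genes that work beside its targets and the arm of ATF4. Some are NRF2 targets themselves, such as Sqstm1, which fell, and Akr1b8, which rose. Of 114 tested genes 38 rose, 24 fell and 52 did not pass, with a median log2 change of 0.10, where 17.9% of all genes tested rose and 14.5% fell. Among the 12728 genes averaging 5 CPM or more, 2675 rose and 2937 fell. The same backgrounds apply to the counts of each list below. The lists were chosen with earlier results of these data known, so the counts describe them and test nothing.

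Of the 12 regulators 1 rose and 2 fell, with a median log2 change of -0.07. Keap1, the inhibitor, stood at 121 ± 0.870 CPM in NCD and 114 ± 3.61 CPM in HFD (edgeR adjusted p = 0.231), and Bach1, the repressor of heme oxygenase, at 121 ± 8.49 and 136 ± 0.805 CPM (edgeR adjusted p = 0.101, called higher by DESeq2 at an adjusted p of 0.0147). Mafk, a small MAF partner, stood at 93.9 ± 6.06 and 108 ± 2.51 CPM (edgeR adjusted p = 0.0704, and DESeq2 adjusted p = 0.00519). Sqstm1, whose protein p62 sequesters KEAP1 and which is itself an NRF2 target, fell from 2972 ± 49.0 to 2337 ± 39.4 CPM (edgeR adjusted p = 7.36e-04). Btrc, part of a KEAP1-independent route of NRF2 degradation, fell from 80.8 ± 1.79 to 58.6 ± 2.49 CPM. In its longest transcript 192 of 4720 bases are near-identical to Rpl6 or to 5 pseudogenes, which together held 134% as many counts as Btrc, so its count is uncertain. Bach2, a B cell relative of Bach1, rose from 4.95 ± 0.877 to 15.8 ± 2.36 CPM, alongside the B cell markers given further on, and 701 of the 8882 bases of its longest transcript have near-identical copies among 32 other genes. The number of regulators called higher was 2 without NCD replicate 1 or NCD replicate 2, with limma-voom and with counts divided by 4, and 3 with DESeq2 and when only genes averaging 5 CPM or more were tested.

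Of 16 genes of cystine and glutathione supply 6 rose and 6 fell, with a median log2 change of 0.07. Slc1a5, a neutral amino acid carrier that takes up glutamine, rose from 26.8 ± 2.22 to 93.7 ± 2.37 CPM, while its relative Slc1a4 fell from 100.2 ± 1.07 to 66.0 ± 0.210 CPM. Chac1, which degrades glutathione and is induced by ATF4, fell from 102 ± 2.49 to 62.4 ± 1.26 CPM. Cth, which makes cysteine from cystathionine, rose from 0.992 ± 0.198 to 4.53 ± 0.513 CPM. Gss, the second enzyme of glutathione synthesis, stood at 56.5 ± 3.35 and 62.7 ± 1.60 CPM (edgeR adjusted p = 0.173). Without HFD replicate 1 or HFD replicate 2, 3 of these genes were called higher instead of 6. When only genes averaging 5 CPM or more were tested, 13 of the 16 entered the test and 3 were called higher, since Cth, Ggt1 and Ggt5 were left out of it.

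Of 25 glutathione peroxidases and transferases 9 rose and 6 fell (3 fell without HFD replicate 1), with a median log2 change of 0.10. Gsta4, which conjugates lipid aldehydes such as hydroxynonenal, rose from 6.40 ± 0.880 to 73.2 ± 0.887 CPM and Gsta3, of the same class, from 10.4 ± 0.826 to 54.6 ± 7.05 CPM. The microsomal transferase Mgst1 rose from 17.3 ± 0.179 to 77.8 ± 0.190 CPM and Gstm2 from 11.2 ± 0.123 to 24.1 ± 1.24 CPM, the latter with a near-identical copy, Gm6665, so its count is uncertain. The 6 that fell were Gstm1, Gstt1, Gsto1, Gstz1, Glrx2 and Glrx5. Of these Gstm1 stood highest, falling from 209 ± 19.9 to 170 ± 6.30 CPM (edgeR adjusted p = 0.0339). A pseudogene near-identical to part of Gstm1 held 1.3% as many counts. Gsto1 fell from 109.8 ± 0.700 to 73.9 ± 2.74 CPM. Gpx4, which removes lipid peroxides, stood at 138 ± 5.84 and 148 ± 5.07 CPM (edgeR adjusted p = 0.243), with a pair of pseudogenes that held 24.2% as many counts.

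Of 11 thioredoxins and peroxiredoxins 5 rose and 1 fell, with a median log2 change of 0.15. Prdx6 rose from 99.7 ± 3.02 to 239 ± 2.69 CPM, thioredoxin Txn1 from 77.8 ± 1.78 to 135 ± 3.65 CPM, and Txnip, its glucose-induced inhibitor, from 45.9 ± 0.181 to 109 ± 0.810 CPM. Sesn2, a stress-induced sestrin, fell from 264 ± 4.17 to 163 ± 0.175 CPM. Of 5 genes that remove superoxide and hydrogen peroxide 2 rose, the extracellular dismutase Sod3, from 7.64 ± 0.227 to 43.7 ± 0.288 CPM, and catalase (Cat), from 63.9 ± 2.03 to 120.1 ± 2.96 CPM, with a median of 0.19 for the list. Sod1 stood at 232 ± 11.1 and 213 ± 4.10 CPM (edgeR adjusted p = 0.132) and Sod2 at 126 ± 9.94 and 144 ± 5.88 CPM (edgeR adjusted p = 0.0988, called higher by DESeq2 at an adjusted p of 0.0138). Near-identical copies of 361 of the 5861 bases of Sod2 lie in 14 other genes.

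Of 10 genes that supply NADPH, the reductant of Gsr, Txnrd1 and Nqo1, 5 rose and 3 fell, with a median log2 change of 0.28. Enzyme genes of the pentose phosphate pathway were among the rises, G6pdx from 80.4 ± 1.55 to 116 ± 0.671 CPM, Pgd from 234.0 ± 0.503 to 387 ± 4.92 CPM and Taldo1 from 209 ± 0.292 to 285 ± 10.7 CPM, while mitochondrial Idh2 fell from 173 ± 4.23 to 105 ± 3.06 CPM. Of 10 heme and iron genes 2 rose and 3 fell, with a median of -0.09. Biliverdin reductase gene Blvrb rose from 24.9 ± 2.29 to 47.7 ± 5.86 CPM and the heme transporter gene Slc48a1 from 127 ± 3.96 to 158 ± 0.308 CPM, while the transferrin receptor gene Tfrc fell from 290.3 ± 8.61 to 176 ± 4.42 CPM. Of the ferritin chains, Ftl1 fell from 3184 ± 63.6 to 2499.9 ± 190.5 CPM, and Fth1 stood at 1254 ± 243 and 1740 ± 177 CPM (edgeR adjusted p = 0.0509, with a range of 0.00591 without NCD replicate 2 to 0.163 over the alternatives). Ftl1 has near-identical copies, so its count is uncertain.

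Of 16 detoxification and export genes 15 passed the count filter, and of these 6 rose and none fell, with a median log2 change of 0.17. Akr1b8, an aldose reductase relative that NRF2 induces in mice, rose from 14.7 ± 0.736 to 56.2 ± 3.74 CPM, but shares a near-identical stretch with Akr1b10. The glutathione conjugate pump gene Abcc1 rose from 109 ± 3.19 to 207 ± 5.49 CPM, its relative Abcc4 from 56.8 ± 6.19 to 94.2 ± 2.86 CPM and the carbonyl reductase gene Cbr3 from 16.2 ± 2.98 to 35.4 ± 0.793 CPM. At an unadjusted p under 0.05 1 gene of the list was lower, 1 was called lower with DESeq2 and 1 with edgeR without HFD replicate 2.

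ATF4, which induces Slc7a11 together with NRF2, has further targets among 10 genes of its arm, of which 2 rose and 3 fell, with a median log2 change of -0.05. Ddit3 and Trib3, a pair of its stress targets, fell from 358 ± 7.95 to 235 ± 9.33 CPM and from 320.0 ± 9.08 to 211 ± 10.9 CPM, while Ddit4, which also responds to low oxygen and glucocorticoids, rose from 84.3 ± 1.82 to 161 ± 1.90 CPM and the mitochondrial enzyme gene Shmt2 from 107 ± 1.32 to 145 ± 1.33 CPM.

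**Figure D4:**
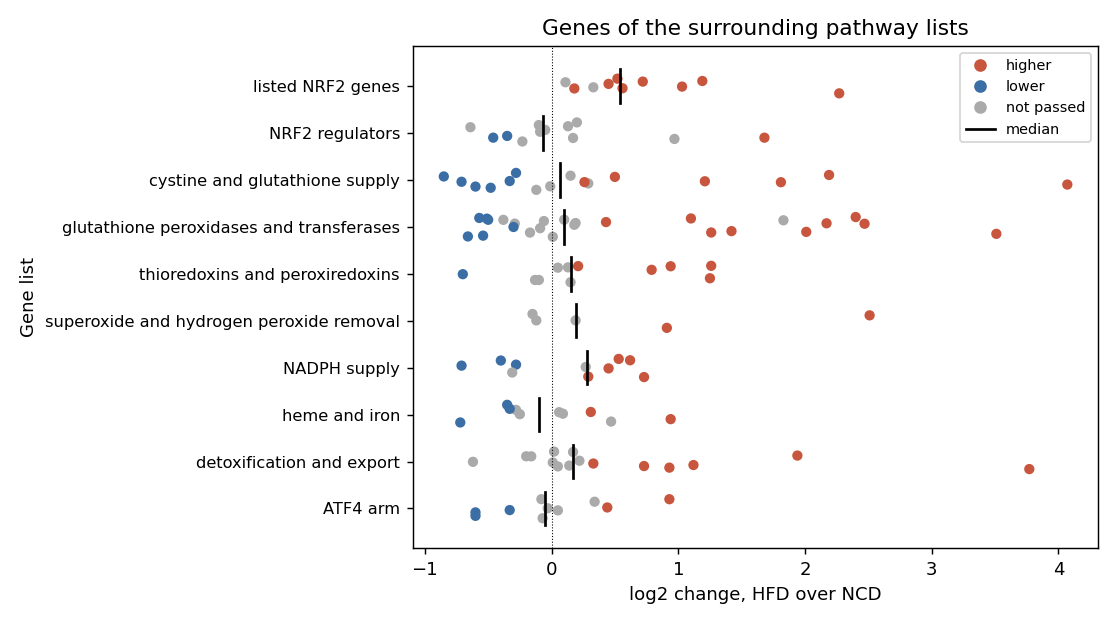
Log2 change in HFD over NCD of each tested gene of the 10 listed genes and of the 9 surrounding lists, in red where called higher, blue where called lower and grey where not passed, with a black bar at the median of the list. The median of the listed genes is 0.54, and those of the other lists lie between -0.09 and 0.28. The points furthest right are Ggt1 and Aldh3a1, which stood at 1.09 and 1.31 CPM in HFD.

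Markers of other cell types moved with the same contrast. All 7 B cell and plasma cell, 9 acinar and 8 fibroblast and stellate cell markers rose, as did 10 of 11 immediate early genes, which respond to stress and tissue handling. The B cell and plasma cell markers summed to 553 to 555 CPM in the NCD libraries and 3695 to 3735 CPM in the HFD libraries, the acinar markers to 368 to 386 and 2537 to 2902 CPM, the fibroblast and stellate cell markers to 121 to 122 and 1262 to 1289 CPM, and the immediate early genes to 1033 and 2928 to 3096 CPM. Of 7 monocyte markers 6 were tested and 5 rose, and of 8 T cell and NK cell markers 7 were tested and 6 rose, with sums of 19.6 to 20.5 and 110 to 114 CPM for monocyte and 11.5 to 12.5 and 51.8 to 61.4 CPM for T cell and NK cell markers. Of 10 macrophage markers 2 rose and 5 fell, with sums of 743 to 766 CPM in NCD and 643 to 644 CPM in HFD. Itgax changed most of the 10, falling from 101 ± 0.276 to 53.4 ± 5.63 CPM (edgeR adjusted p = 0.00115). Csf1r rose from 86.5 ± 5.09 to 101 ± 1.10 CPM (edgeR adjusted p = 0.0489). The Csf1r call was lost under 6 of the 13 alternatives, without any 1 of the 4 libraries (edgeR adjusted p = 0.0527 and 0.200 without NCD replicate 1 and 2, and 0.146 and 0.134 without HFD replicate 1 and 2), without the count filter (0.0735) and with a replicate block (0.0600). Ptprc, a leukocyte marker, rose from 53.7 ± 1.49 to 132 ± 2.86 CPM. Of 8 beta cell markers 6 fell, with sums of 17411 to 17893 CPM in NCD and 13595 to 14193 CPM in HFD, and of 6 alpha cell markers 4 rose, with sums of 9338 to 9792 and 13283 to 13921 CPM. Of 3 delta and PP cell markers 2 fell, with sums of 4262 to 4468 and 3586 to 3726 CPM. Of 7 endothelial markers 4 rose and 2 fell, with sums of 1685 to 1720 and 2003 to 2013 CPM. Of 7 ductal markers 4 rose and 1 fell, with sums of 907 to 937 and 1007 to 1085 CPM. Of 7 neutrophil markers, S100a8, Ly6g, Retnlg and Mpo were at 0 in every library, S100a9 had 3 counts in HFD replicate 2 alone, and Cxcr2 had 36 and 4 counts in the HFD libraries and 0 in NCD. Csf3r, the only one of the 7 that was tested, had 422 to 672 counts in a library and did not pass (edgeR adjusted p = 0.225). The neutrophil markers summed to 8.36 to 10.4 CPM in NCD and 7.40 to 8.23 CPM in HFD. The part of these cell types in the changes of the 10 listed genes was not tested.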

How the data were processed

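RNA was isolated with TRIzol and libraries were prepared with a stranded kit from KAPA, per the labels' protocols. The authors deposited raw counts per gene as whole numbers, with a separate table for every library. The submitters' processing notes name HISAT, featureCounts 1.5.0, DESeq 1.8.3 and build GRCm38, with no role or setting. Whether counting used the strand is not stated in the sources used here. Among low counts, multiples of 4 were 1.57 to 1.63 times as frequent as their neighbours, so a count may rest on fewer fragments than it shows.

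Diet groups and replicate numbers came from the sample titles. Counts were tested in R 4.3.3 with the quasi-likelihood F test of edgeR 4.0.16 after filterByExpr (minimum count 10, leaving 21563 genes) and TMM, with no block for replicate number and with p adjusted over all genes tested. The standard error of a log2 change is its size over the square root of F. Symbols matched 55154 of 55421 identifiers, and for Nnt, with 2, the one with more counts was used. Stretches with at least 95% identity over 100 bases were found with BLAST 2.17.0. Keap1, Txnip, Txn1 and Sod1 share such a stretch with 1 other gene each. G6pdx, Gss and Sqstm1 share such a stretch with a neighbouring gene, which leaves their counts uncertain without a known strand setting. Named genes are the listed genes, from each list the 4 tested genes (or fewer) of lowest p, a fixed set of genes and the 3 genes closest to Slc7a11. The tubulin genes, Ggt1, Aldh3a1, Gstm1, Gstt1, Gsto1, Gstz1, Glrx2 and Glrx5 were chosen after their values or matches were seen. The members and lists were chosen with earlier results of these data known.

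In simulated libraries with the sizes and gene-wise dispersions of the real ones (20854 genes), 50 genes per size were changed. The test found 2%, 18%, 58% and 96% of those changed 1.25-fold, 1.5-fold, 2-fold and 4-fold, and made 21 calls among genes left unchanged. The changed genes were few and were not matched to the high counts of the listed genes. Far more genes were called in the real comparison, so these shares do not give the power for the listed genes. Alternatives were size factors of DESeq2 1.42.0, its Wald test, unscaled totals, limma-voom of limma 3.58.1, no filter on counts, only genes averaging 5 CPM or more, a replicate block, each library left out, unscaled library sizes that leave out hormone, acinar and most-counted genes, and counts divided by 4. A diet reduced to a single library was taken to vary as the other diet did.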

Additional observations from a re-analysis of the deposited data

How the results depend on the processing

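Of the 8 listed genes called higher, 7 kept direction and call under all 13 alternatives, Gsr being the exception. Bach1, Mafk and Sod2, which did not pass, were called higher with DESeq2 and when only genes averaging 5 CPM or more were tested (edgeR adjusted p = 0.0423, 0.0268 and 0.0373), and Mafk also with counts divided by 4 (0.0443). Fth1, which did not pass either, was called higher by edgeR with DESeq2 size factors (edgeR adjusted p = 0.0478) and with counts divided by 4 (0.0340). It was also called higher by edgeR when only genes averaging 5 CPM or more were tested (0.0325) and by limma-voom (limma-voom adjusted p = 0.0360). Calls over the whole table moved too. Of all genes 3860 were called higher in the main test, 4959 with DESeq2, 3391 without the count filter and 3137 when only genes averaging 5 CPM or more were tested. The number of listed genes called higher was 7 without any 1 library and without the count filter, 9 with DESeq2 and when only genes averaging 5 CPM or more were tested, and 8 under the others, with none called lower. Over all genes, 2015 (without HFD replicate 1) to 2174 (without NCD replicate 2) were lower when a library was left out, against 3123 with all 4, and the cause was not tested beyond the smaller number of samples. Of the surrounding genes, 32 to 45 rose and 18 to 27 fell over the alternatives.

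Libraries with the same replicate number did not deviate together from their diet means (Pearson r = 0.00211 across genes, which are not independent), so the numbers were not taken to pair the samples. With a replicate block 8 listed genes were higher, as were 3252 genes in all against 3860 without it, and 2583 were lower. Gclm, the listed gene with a shared difference by number, had a log2 change of 0.40 and an edgeR adjusted p of 0.0523 with the block. Each listed gene had at least 5278 counts in every library, and n = 2 libraries per diet.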
